A study of Mus musculus with 2 samples.

Results

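Proteasome genes were examined in RNA from embryonic mouse liver. The members were the protein-coding genes whose symbol begins with Psm, a letter from a to g and a number, and 50 of the 43346 Ensembl genes in the deposited tables met this rule. Of these, 49 encode proteasome subunits, regulators or assembly factors. The remaining gene, Psmc3ip, was caught by the pattern alone and encodes a partner protein of meiotic recombination, so it was kept out of every count below. The libraries came from livers of strain B6NCrl at embryonic day 11.5, pooled over male and female embryos, and 109 embryos are named for replicate 1. There was 1 group with 2 biological replicates, a library each, made by a SmartSeq protocol from 1 cell-equivalent of total RNA above 200 nucleotides with spike-in RNAs added. The assay is called single-cell RNA-seq in the labels although the source is pooled tissue, and no other condition is among the samples used here.

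The proteasome degrades proteins that have been tagged with ubiquitin. Its barrel-shaped core is built of outer rings of alpha subunits (Psma genes), which gate the entrance, and inner rings of beta subunits (Psmb genes), some of which cut proteins. A regulatory particle caps the core, and in it a ring of ATPases (Psmc genes) unfolds the substrate while the other subunits (Psmd genes) hold and trim ubiquitin chains. Alternative activators (Psme genes) can replace that cap, and dedicated chaperones (Psmg genes with Psmd5, Psmd9 and Psmd10) help to assemble the particle. In cells exposed to interferon the cutting subunits Psmb5, Psmb6 and Psmb7 are replaced by the immune subunits Psmb8, Psmb9 and Psmb10, which favour peptides for antigen presentation.

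The contrast in level described below falls between these cutting subunits and their immune counterparts, so their promoters are shown for the genes with an entry in RefSeq's table (build GRCm38.p6, 250 bases before to 50 bases after the start, 5' to 3' on the strand of the gene). The windows are chr17:34197945-34198244 on the + strand for Psmb8, chr17:34187281-34187580 on the - strand for Psmb9, chr8:105938343-105938642 on the - strand for Psmb10, chr14:54617946-54618245 on the - strand for Psmb5 and chr11:70525107-70525406 on the + strand for Psmb6. Capitals mark matches, on either strand, to the core of the antioxidant response element (TGACNNNGC), which factors such as Nfe2l1 bind, to the core of the interferon-stimulated response element (GAAA, any 2 bases, GAAA), or to the CCAAT box. The windows of Psmb8 and Psmb10 hold no such match and so no capitals.
Psmb8: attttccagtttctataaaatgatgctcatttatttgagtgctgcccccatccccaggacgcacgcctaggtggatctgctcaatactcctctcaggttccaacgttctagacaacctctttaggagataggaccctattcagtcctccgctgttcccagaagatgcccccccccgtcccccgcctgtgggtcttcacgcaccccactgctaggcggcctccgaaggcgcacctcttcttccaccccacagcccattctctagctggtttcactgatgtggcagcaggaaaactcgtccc
Psmb9: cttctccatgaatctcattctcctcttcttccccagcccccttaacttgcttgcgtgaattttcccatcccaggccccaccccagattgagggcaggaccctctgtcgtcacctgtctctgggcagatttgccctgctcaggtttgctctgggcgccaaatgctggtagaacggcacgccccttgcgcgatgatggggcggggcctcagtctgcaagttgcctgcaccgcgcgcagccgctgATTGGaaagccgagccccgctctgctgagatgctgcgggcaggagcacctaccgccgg
Psmb10: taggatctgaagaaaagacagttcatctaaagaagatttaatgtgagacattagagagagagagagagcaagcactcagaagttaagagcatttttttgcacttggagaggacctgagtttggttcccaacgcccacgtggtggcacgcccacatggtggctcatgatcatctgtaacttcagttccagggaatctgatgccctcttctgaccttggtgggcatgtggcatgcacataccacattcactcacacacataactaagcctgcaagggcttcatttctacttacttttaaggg
Psmb5: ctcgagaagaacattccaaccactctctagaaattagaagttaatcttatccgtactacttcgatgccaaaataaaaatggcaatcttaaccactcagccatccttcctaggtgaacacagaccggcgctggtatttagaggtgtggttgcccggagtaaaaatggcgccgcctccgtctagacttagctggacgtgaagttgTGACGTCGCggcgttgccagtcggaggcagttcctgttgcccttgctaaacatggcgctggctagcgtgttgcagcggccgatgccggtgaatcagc
Psmb6: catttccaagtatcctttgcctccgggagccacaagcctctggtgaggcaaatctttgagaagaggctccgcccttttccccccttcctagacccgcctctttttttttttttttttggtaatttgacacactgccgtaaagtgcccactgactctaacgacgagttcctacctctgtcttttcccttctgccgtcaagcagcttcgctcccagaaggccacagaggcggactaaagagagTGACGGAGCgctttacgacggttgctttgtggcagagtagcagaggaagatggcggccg

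Psmb5 and Psmb6 each held 1 match to TGACNNNGC, starting 47 and 9 bases before the start of transcription, and the 3 immune subunit windows held none. No window of the 3 immune subunits held the interferon-stimulated element core, which says only that these letters are not in these windows. The windows of Psmb8 and Psmb9 lie inside the gene spans given below, so bases upstream of those spans were not searched. Over all members 41 of 49 genes had an entry, with 44 windows, and Psma8, Psmb1, Psmb2, Psmb7, Psmc3, Psmd3, Psmd7 and Psmg2 had none. TGACNNNGC was present in 6 of the 44 windows (13.6%), against 12.4% of all 32851 promoter windows in the table. The interferon-stimulated element core was present in 5 (11.4%), those of Psmb3, Psmd4, Psme1, Psmd9 and Psmg4, against 3.44% of all windows. The GC box GGGCGG was present in 24 (54.5%), against 35.7% of all windows, CCAAT in 14 (31.8%) against 37.4%, and TATAAA in 4 (9.09%) against 13.6%. Each motif was searched on both strands, the matches in the printed windows did not overlap, and a match is a description of the letters, not of a bound site.

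Total expected counts were 33289699 in replicate 1 and 32607453 in replicate 2, and spike-ins took 5.83% and 7.68% of TPM. TPM is an abundance per unit of transcript length, scaled to the library. Of the markers of the tissue, 8 of 9 hepatoblast genes and 10 of 10 erythroid genes were at 1 TPM or more in both libraries. Over all protein-coding genes that share was 27.3%. Hnf4a, a hepatocyte factor, had 34.8 TPM in replicate 1 and no read in replicate 2. These are bulk levels, in which fewer cells of a type and less RNA per cell cannot be told apart. With 2 libraries of 1 group no test between conditions exists, and all comparisons below are descriptions of these libraries, with SD over n = 2 where a mean is given. Where a gene has a pair of values, replicate 1 stands first and replicate 2 after it.

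Proteasome RNA was abundant and most of its genes were detected. A level of 1 TPM or more in each library, called detected here, was reached by 44 of 49 members, against 27.3% of all 21474 protein-coding genes. At 5 TPM or more it was 43 members, against 23% of all. Psmb9 and Psme4 reached 1 TPM in replicate 1 alone, and Psmb8, Psma8 and Psmb11 had no read in either library. The members together took 1.28% ± 0.0251 of the TPM of all Ensembl genes (SD, n = 2), with 1.29% in replicate 1 and 1.26% in replicate 2. Their median mean TPM was 183, at percentile 96.5 of protein-coding genes.

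**Figure D1:**
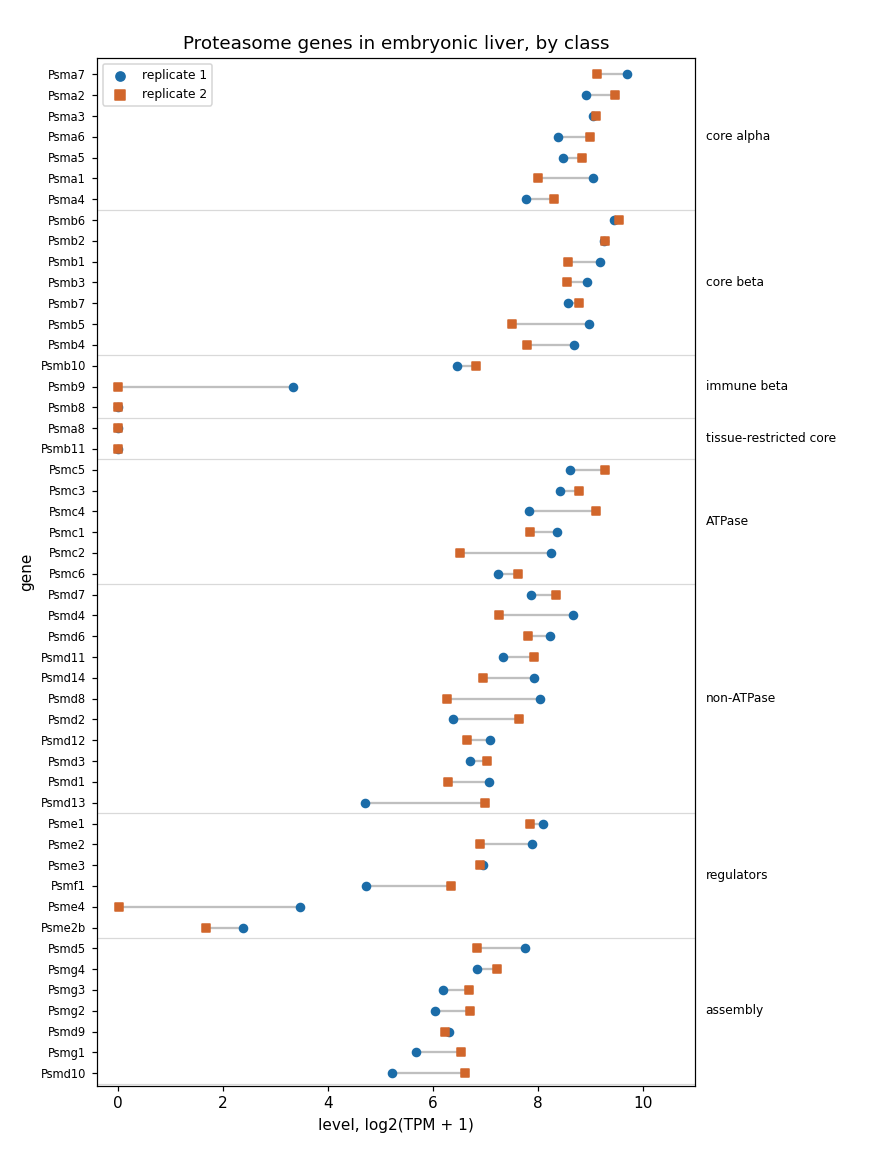
Level of each of the 49 proteasome genes, as log2(TPM + 1), in replicate 1 (circles) and replicate 2 (squares), grouped by class, with a line joining the libraries. The 14 constitutive core genes lie between 180 and 828 TPM, while Psmb8, Psma8 and Psmb11 are at 0 in both libraries.

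The constitutive core held the highest class medians of the mean level. The alpha genes had a median level of 8.69 on the log2(TPM + 1) scale and the beta genes Psmb1 to Psmb7 one of 8.75. Psmb6, which carries the caspase-like activity, was the highest member by mean TPM, with 698 TPM in replicate 1 and 743 in replicate 2, and ranked 184th among protein-coding genes. Psma7, an alpha ring subunit, followed with 828 and 558 TPM. Psmb2, a beta subunit without a cutting site, had 613 and 620 TPM, nearly equal in the libraries. Psma2, also of the alpha ring, had 481.5 and 706 TPM, higher in replicate 2. The lowest of the 14 was Psma4 with 219 and 317 TPM, and its values did not overlap those of Psmb6.

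The other core genes lay between these. Psmb1 had 582 and 379 TPM, Psmb3 489 and 378, and Psmb4 414 and 222, all structural beta subunits and all higher in replicate 1. Among the alpha genes, Psma6 had 332 and 509 TPM and Psma5 356 and 460.5, both higher in replicate 2, while Psma1 had 531 and 256. Ranked by mean TPM, each of the 13 neighbouring pairs of core genes overlapped in its values and differed by less than the larger SD of the pair. The order within the core was also only loosely shared by the libraries (Pearson r 0.312, Spearman rho 0.367 across 14 genes, which are not independent replicates). Over all 49 members r was 0.912 and rho 0.817, a range that runs from genes without reads to the core.

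Psma3, an alpha subunit, had 527 and 553 TPM, and this level is uncertain. A processed pseudogene on chromosome 6 (31141979 to 31142663, mm10), Gm13835, matched its leading transcript at 100% identity over 685 bases and was assigned 3714 reads in replicate 1 and 2766 in replicate 2. These were 20.4% and 14.4% of the reads of the pair. Gene and copy together stood at 741 and 714 TPM, with a mean of 728 ± 19.2 TPM (SD, n = 2), close to the mean of Psmb6 at 721 ± 31.7. Only a part of the TPM of Psma3 itself fell on transcripts typed as protein-coding in annotation release M21. Transcripts of another type, or without a match in that release, held 50.5% and 52.3%.

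Among the cutting subunits the constitutive genes held nearly all of the RNA. The immune genes Psmb8, Psmb9 and Psmb10 summed to 96.7 TPM in replicate 1 and 112 in replicate 2, which was 5.77% and 7.59% of the sum with Psmb5, Psmb6 and Psmb7. The ratio of immune to constitutive TPM was 0.0717 ± 0.0148 (SD, n = 2). The immune genes differed widely from each other, with a median level of 1.67 on the log2(TPM + 1) scale, that of Psmb9. Psmb10 (chromosome 8, 105935735 to 105938444, mm10), the immune counterpart of the trypsin-like subunit, had 87.6 TPM from 3033 reads and 112 TPM from 3849 reads. This placed it at percentile 93.5 of protein-coding genes, and it held most of the immune sum in both libraries. Psmb7, its constitutive partner (chromosome 2, 38588036 to 38644087), had 379 and 438 TPM, so that the ratio of Psmb10 to Psmb7 was 0.231 in replicate 1 and 0.256 in replicate 2. A stretch of 255 bases of Psmb7 is shared with the overlapping gene Nek6, which had 2 and 1375 reads.

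Psmb9, the counterpart of Psmb6 (chromosome 17, 34181987 to 34187764), was read in replicate 1 alone, at 9.08 TPM from 335 reads. Against replicate 2 that share of the library was at least 108-fold higher, with a floor of 3 reads per library, which allows for read counting error only, since PCR copies are not independent molecules. Psmb9 shares 212 bases with Tap1, a peptide transporter gene on the other strand, which had no read in either library. Psmb8, the counterpart of the chymotrypsin-like Psmb5 (chromosome 17, 34197721 to 34201454), had no read in either library. By read counting error alone, a count of 0 allows up to 0.0934 CPM (reads scaled to the total of Ensembl genes) in replicate 1 and 0.0964 CPM in replicate 2. These floors leave out losses before sequencing. With 1 cell-equivalent per library, an absence of reads does not show absence of RNA. Psmb5 itself (chromosome 14, 54614119 to 54618022) had 502 and 180 TPM, the widest difference between libraries in the core. The tissue-restricted core genes Psmb11, of thymic epithelium, and Psma8, of testis, likewise had no read. Whether counting used the strand is not stated, so Psmb7, Psmb9 and Psmd13 may share reads with their overlapping neighbours Nek6, Tap1 and Sirt3, of which Sirt3 had no read in replicate 1 and 25 reads in replicate 2.

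Markers of the blood cells that carry immune subunits in adults were partly present. Of 12 such genes 5 were detected in both libraries, against 27.3% of all protein-coding genes, and 3 in replicate 1 alone. The summed TPM of the 12 was 636 in replicate 1 and 319 in replicate 2. The T cell gene Cd3e, the B cell gene Cd79a, the macrophage gene Cd68 and the myeloid factor Spi1 had no read. Other macrophage and myeloid genes were present, with the complement genes C1qb at 107 and 56.5 TPM and C1qc at 51.7 and 29.5, and Lyz2 at 140 and 41.9. Fcer1g, a signalling chain of Fc receptors, had 141 and 64.4 TPM, and Mpo, a granule enzyme, 152.9 and 127. Csf1r, a macrophage growth factor receptor, had 23.5 TPM and no read, and C1qa 14.7 TPM and no read. The common leukocyte gene Ptprc had 5.19 and 0.07 TPM. The part of these cells in the immune subunit levels was not tested.

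**Figure D2:**
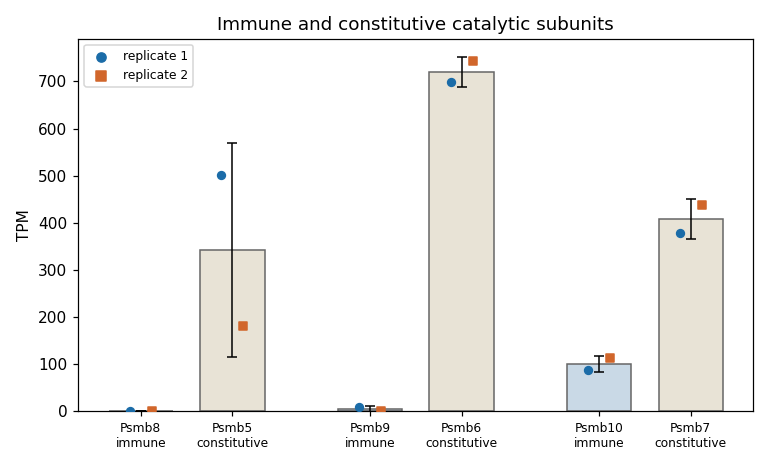
TPM of each immune cutting subunit beside its constitutive partner. Bars are means with SD (n = 2), circles replicate 1 and squares replicate 2. Psmb10 stands near 100 TPM in both libraries while Psmb8 and Psmb9 are at or close to 0.

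Other genes of antigen presentation and of the interferon response were described from lists. Against 27.3% of all protein-coding genes, 5 of 10 antigen presentation genes were detected in both libraries. They included the chaperone Calr at 641 and 532 TPM, B2m, the light chain of class I molecules, at 401 and 475, and the disulfide isomerase Pdia3 at 459.5 and 372. Tap1, Erap1, which trims peptides, and Nlrc5, the activator of class I genes, had no read. Of 12 interferon response genes 4 were detected in both, against the 27.3% of all protein-coding genes given above, and 7 were under a TPM of 1 in both, among them the induced genes Ifit1, Ifit3 and Isg15, which had no read. The receptor chain Ifnar1 had 60.7 and 16.6 TPM, and Ifngr1 had 12.1 and 40.1.

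The regulatory particle was lower than the core per unit length and less even. The median TPM of the 14 core genes was 2.19 ± 0.113 times that of the 17 regulatory genes (SD, n = 2), with 2.11 in replicate 1 and 2.27 in replicate 2. The medians were 496 TPM for the core and 235 for the regulatory particle in replicate 1, and 449 and 198 in replicate 2. The core transcripts are shorter, with a median effective length of 887 bases against 1419 in replicate 1. In CPM, which is not divided by length, the core median was 1.2 times the regulatory median in replicate 1 and 1.6 times in replicate 2. Across the 43 members with a mean of 10 TPM or more, log2 effective length and log2 mean TPM had a Pearson r of -0.4. Over all 6377 protein-coding genes at that level r was -0.462, while for the members' mean CPM it was 0.185. The part of length in the difference between core and regulatory particle was not tested.

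**Figure D3:**
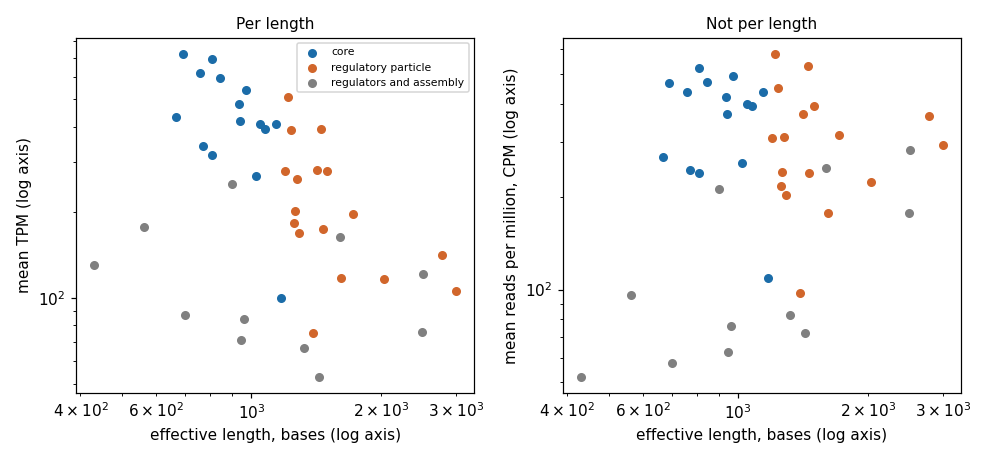
Effective length in bases of each of the 43 members that averaged 10 TPM or more, against its mean TPM (left) and its mean CPM (right), all on log axes, with core, regulatory particle and other genes in different colours. Psmb10 is the core point near 100 TPM. The other core genes are shorter than the regulatory genes and mostly above them in the left panel, and the groups overlap in the right one.

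Within the regulatory particle the ATPases had a higher median than the other subunits, though single genes of the classes overlapped. Their median TPM was 2.28 ± 0.424 times that of the 11 non-ATPase genes (SD, n = 2), and in CPM the ratio was 1.8 ± 0.426. On the log2(TPM + 1) scale the median levels of these classes were 8.29 and 7.15. Psmc5 was the highest ATPase gene at 393 and 625 TPM, followed by Psmc3 at 344 and 438 TPM. Psmc4 had 228 and 550 TPM, and Psmc2 had 303 and 91.1, so that these ring partners differed in opposite directions between the libraries. Psmc1 had 331 and 231 TPM and Psmc6 151 and 198.

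The non-ATPase genes covered a wide range. The highest, Psmd7, a partner of the deubiquitinase, had 235 and 325 TPM. Psmd4, a ubiquitin receptor, had 405 and 153 TPM. Psmd14, the deubiquitinase that removes chains before entry, had 242 and 124 TPM, higher in replicate 1. Of the scaffold genes at the base, Psmd2 had 83 and 199.8 TPM and Psmd1 had 134 and 77.3. Among the lid subunits, Psmd6 had 301 and 224 TPM, Psmd11 160 and 242, and Psmd8 262 and 76. Psmd12 had 136 and 99.3 TPM and Psmd3 104 and 130. Psmd13, a further lid subunit, was the lowest at 25 and 126 TPM, with 1045 and 5063 reads. Of the 11 non-ATPase genes replicate 2 held the higher value for 5 and replicate 1 for 6. Over all 17 regulatory genes ranked by mean TPM, 16 of 16 neighbouring pairs overlapped in their values and 15 of 16 differed by less than the larger SD of the pair. Genes further apart in that order could be separate, as Psmc5 and Psmd13 were.

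Activators and inhibitors had a lower class median still, and were uneven. Their median level was 6.24 on the log2(TPM + 1) scale, close to the 6.38 of the assembly factors. That median counts Psme2b, a copy of Psme2 described below. Psme1, the alpha chain of the interferon-inducible activator ring, had 273 and 232 TPM, above the regulatory particle medians of 235 and 198. Its partner Psme2 had 237 and 118 TPM. The ratio of Psme1 to Psme2 was 1.56 ± 0.576 (SD, n = 2). A retrocopy of Psme2, Psme2b, matches it at 99.4% identity over 794 bases and had 4.25 and 2.2 TPM, a level that can hold reads of the parent. Psme3, the nuclear homologue of this ring, was nearly equal in the libraries at 124 and 119 TPM. Psmf1, an inhibitor of the core in vitro, had 25.6 and 80.1 TPM. Psme4, a large single-chain activator (chromosome 11, 30771726 to 30880361), had 10.1 TPM from 336 reads in replicate 1 and 0.02 TPM from 3 reads in replicate 2. In replicate 1 a processed transcript of 579 bases held 89% of its abundance, and the protein-coding transcript of 6491 bases held 11%.

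Assembly factors lay well under the core. The SD of their levels over genes, on the log2(TPM + 1) scale, was 0.82 in replicate 1 and 0.3 in replicate 2. All 7 were detected in both libraries, against 27.3% of all protein-coding genes. The median TPM of the 7 was 0.145 of the core median in replicate 1 and 0.227 in replicate 2. Psmd5, a chaperone of the base, was highest at 215 and 113 TPM, and of its fellow base chaperones Psmd9 had 78 and 73.8 TPM and Psmd10 36.1 and 97.3. The chaperones of the alpha ring were each higher in replicate 2, with Psmg4 at 114 and 148 TPM, Psmg3 at 71.9 and 102, Psmg2 at 65.2 and 104, and Psmg1 at 50.4 and 91.8. Pomp, the maturation factor of the core and not a member by symbol, reached the level of the core itself, at 521 TPM in replicate 1 and 604 in replicate 2.

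Pomp belonged to a list of proteasome-associated genes, of which 9 of 11 matched genes were detected in both libraries. The share over all protein-coding genes was 27.3%. Sem1, a small regulatory subunit outside the naming scheme, had 148 and 177 TPM, and Adrm1, a ubiquitin receptor, 103 and 198. Ube3c, a ligase bound to the particle, had 1.97 TPM and no read, and Akirin2, an import factor of the proteasome, 9.38 TPM and no read. All 7 genes of the Nfe2l1 route, by which proteasome genes are induced when the particle is inhibited, were detected in both. Vcp, the segregase that extracts proteins, had 227 and 235 TPM, Nfe2l2, a related factor, 34.8 and 38.9, and Ngly1, which removes the sugar chains of Nfe2l1, 26.8 and 20.3. Nfe2l1 itself had 15.4 and 2.4 TPM.

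The evenness of the core was set beside other complexes whose subunits work in fixed proportion. The SD of the level over subunits, on the log2(TPM + 1) scale, was 0.449 for the 14 core genes and 0.792 for the 17 regulatory genes. It was 0.512 for 7 of 8 subunits of the chaperonin TRiC and 0.991 for 74 cytosolic ribosomal protein genes. For 37 genes taken as nuclear complex I by their Nduf symbols it was 1.3. That list was not checked for true subunits, and it holds Ndufa4 and its paralogue Ndufa4l2. In the separate libraries the core had 0.485 and 0.62, TRiC 0.558 and 0.584, and complex I 1.64 and 1.17. The value of the complex I list was raised by 1 gene, Ndufa4l2, with no read and 48.1 TPM. Without Ndufa4l2, and with Ndufa4 still counted, it was 0.958, with 0.924 in replicate 1 and 1.1 in replicate 2. This comparison was added after the value of Ndufa4l2 was seen. The core and TRiC were thus close in evenness, and their median levels were close as well, at 8.72 and 8.69. Ribosomal protein genes had a median level of 10.2 and complex I genes one of 8.3. The order of the core genes was only loosely shared by the libraries (Pearson r 0.312), so their SD in part holds differences between the libraries. The SDs rest on different numbers of genes, and these spreads carry no test.

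**Figure D4:**
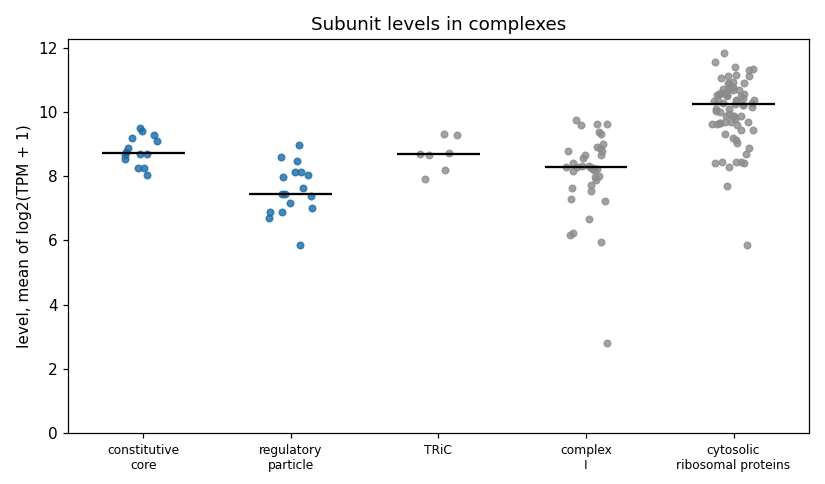
Level of each gene, as the mean over both libraries of log2(TPM + 1). Blue marks the proteasome core and regulatory particle. Grey marks TRiC, the genes with complex I symbols and cytosolic ribosomal proteins. Horizontal lines are medians, at 8.72 for the core, 7.45 for the regulatory particle and 10.2 for ribosomal proteins.

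The libraries were then compared member by member, as the log2 ratio of replicate 2 over replicate 1 of TPM + 1, centred on the median gene. For the 43 members that averaged 10 TPM or more the median absolute ratio was 0.57, against 1.03 over all 6801 genes at that level. A ratio of 2-fold or more was found for 11 of the 43 members, against 51.1% of all genes. Of these, 5 were higher in replicate 2, against 25.2% of all genes, and 6 were higher in replicate 1, against 25.8%. Centred on spike-ins, the numbers were 2 and 11, against 19.9% and 33% of all genes. The comparison with all genes depended on level. At a mean TPM of 100 to 1000, 8 of 35 members were past 2-fold (22.9%), against 20.7% of all genes there. At 10 to 100 TPM it was 3 of 8 members, against 60.2%.

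The members past 2-fold came from several classes. Higher in replicate 2 were Psmd13 (log2 ratio 2.26), Psmf1 (1.58), Psmd10 (1.38), Psmc4 (1.24) and Psmd2 (1.23). Higher in replicate 1 were Psmd8 (-1.80), Psmc2 (-1.75), Psmb5 (-1.50), Psmd4 (-1.42), Psma1 (-1.07) and Psme2 (-1.03). Both groups hold subunits of the same particle, such as Psmc4 and Psmc2 of the ATPase ring.

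**Figure D5:**
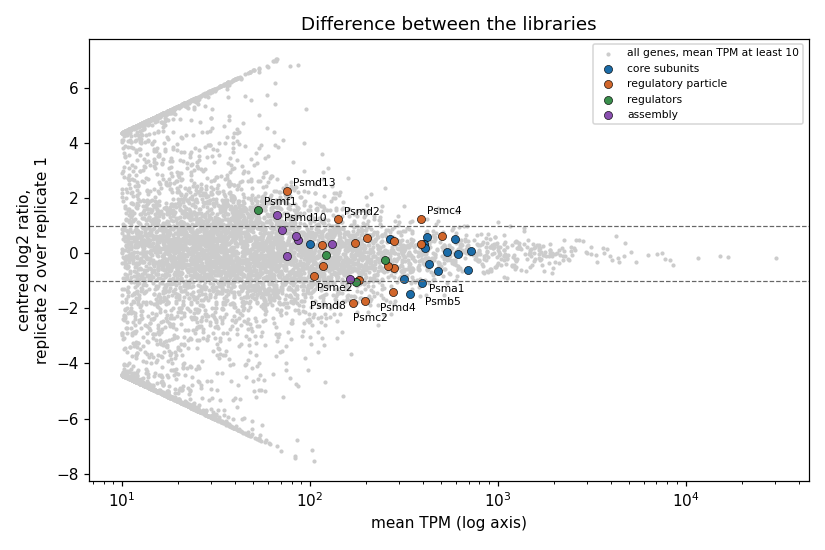
Centred log2 ratio of replicate 2 over replicate 1 against mean TPM (log axis) for all genes averaging 10 TPM or more (grey) and for the 43 members (coloured by class). Dashed lines mark 2-fold, and the 11 members beyond them are named.

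The leading transcript of most proteasome genes was the same in both libraries, though its share could differ, as for Psmd10 (97.28% and 60.85%). Among members averaging 10 TPM or more that have several annotated transcripts, the leading one was shared by the libraries for 31 of 35 (88.6%), against 62.4% of all such genes. At a mean TPM of 100 to 1000 the shares were close, with 26 of 29 members (89.7%) against 84.8% of genes. The 4 of these 35 that differed were Psmb4, Psmd4, Psmg4 and Psmg3, and Psme4, below that level, differed as well, as given above. For Psmb4 a retained-intron transcript of 666 bases held 54.5% of the abundance in replicate 1 and 48.8% in replicate 2, where the protein-coding transcript of 1183 bases led with 50.5%. For Psmd4 the leaders were both protein-coding, at 64.2% in replicate 1 and 56.2% in replicate 2. The leader of Psmg3 held 77.6% in replicate 1 and another transcript led with 68.6% in replicate 2, and for Psmg4 these shares were 100% and 60.1%. Over all members with reads, the leading transcript was protein-coding in 44 of 46 in replicate 1 and 45 of 45 in replicate 2. The share over all genes was not computed, so these counts describe the members alone. In replicate 2 the leader of Psme4 rests on 3 reads. Psmd13 kept its leader but had 44.7% and 43.2% of its abundance on transcripts of another type or without a match in release M21.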

How the data were processed

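RNA-seq tables of 2 libraries of 1 group were used, so no contrast or test was possible. Per the labels, the build is mm10 and, per the text deposited with the tables, the annotation GENCODE release M4, with names of aligner and quantification program not given in the sources used here. Deposited by the authors were expected counts (estimated reads, not all whole), TPM and posterior mean TPM (scaled to a fixed sum over all rows, spike-ins included), the effective length in bases and, per transcript, its percent of the gene's abundance. Libraries held 33289699 and 32607453 reads in sum. Intervals and floors (3 reads) cover counting error only, and p-values were not computed. The reads of the libraries were not the same (chi-square 1189 per gene over 46 members), so they were counted as 2 samples. Symbols, gene types and coordinates came from release M21, which matched 42462 of 43346 Ensembl rows. The TRiC gene Cct6a and the associated gene Paaf1 had no match and were not analysed here. Detection was 1 TPM or more, levels were log2(TPM + 1), and library ratios were centred on the median over genes averaging 10 TPM or more. Near copies were found with BLAST 2.17.0 at 95% identity over at least 200 bases. Shares of TPM use Ensembl genes as the total. Python 3.11.15, pandas 2.3.3 and numpy 2.4.6 were used. The code of the ratio and call steps was tested on simulated counts that held counting error only. That test does not show how the 2-fold rule behaves in libraries of 1 cell-equivalent. Members, lists and comparisons were chosen with earlier results of these data known. Every member is named, with up to 3 high and 2 low genes of each related list, the members past 2-fold and those with differing leading transcripts. Alternatives were posterior mean TPM, CPM, pseudocount, filters, centring and leaving out each replicate.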

Additional observations from a re-analysis of the deposited data

Results flagged for a closer look

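Pseudogenes that resemble members, outside the member counts, held more than the 3 reads that a count of 0 allows. Gm13835, an exact copy of part of Psma3, stood far above the rest with 3714 reads in replicate 1, and its reads are set beside those of Psma3 in the account of the core. Of the copies of Psma5, Gm8394 had 121 reads and Gm12989 90.3 in replicate 2. Gm5422, a copy of Psmd2, had 47.4 reads and Gm14048, a copy of Psmd11, 44.8 in replicate 2. Gm9575, a copy of Psmc1, had 27.1 reads in replicate 1, and Gm6542, a copy of Psma4, 19.3 in replicate 2. Gm4950, a copy of Psmb3, had 18.3 reads and Gm5406, a copy of Psma3, 6.25 in replicate 1, while Psmb6-ps2 had 4 in replicate 2. Whether these reads belong to the copies or to their parent genes was not tested.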

How the results depend on the processing

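Apart from leaving out a replicate, of 64 recomputed values under alternative settings 50 moved by less than the spread between the replicates or, for counts, by less than 1.5 times, and 14 moved further. Of 26 values with a replicate left out, 5 moved further. Without Ndufa4l2, chosen after seeing the data, the complex I SD was 0.958. In CPM in place of TPM the share of the members was 1.23%, the levels of the alpha, ATPase and non-ATPase classes were 8.75, 8.6 and 7.86, the core to regulatory ratio was 1.4, and the immune to constitutive ratio was 0.104. With all rows, spike-ins included, in the total the share was 1.19%. Restricted to genes averaging 1 TPM or more the immune class had a level of 4.16 in place of 1.67, since Psmb8 dropped out. With posterior mean TPM the tissue-restricted genes were at 0.0215 and the ATPases at 8.27, and with a pseudocount of 0.1 they were at -3.32 and 8.29. Centred on spike-ins, 2 members were 2-fold higher in replicate 2 and 11 in replicate 1. With either replicate left out, the alpha level was 8.91 to 8.99, the ATPase level 8.31 to 8.32, the core SD 0.485 to 0.62 and the number of detected members 44 to 46. The immune class level was 0 to 3.33, because Psmb9 was read in replicate 1 alone. No paired analysis was possible because there is 1 group. Depth limits unread genes to under 3 reads, and with 1 cell-equivalent per library an absence of reads does not show absence of RNA.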

Other observations

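Genes that act before the proteasome ranged widely in level. The ubiquitin genes Ubb, at 2021 TPM in replicate 1 and 2017 in replicate 2, and Rps27a, at 1540 and 1565, were the highest of their list and differed little between the libraries. Uba1, the main activating enzyme, had 180 and 64.5 TPM, and Uba6, an alternative activating enzyme, 3.24 TPM and no read. Of 7 shuttle and related genes 7 were detected in both libraries, against 27.3% of all protein-coding genes. Nedd8, a ubiquitin-like modifier, had 323 and 578 TPM, and the shuttle factor Rad23b had 95.7 and 31. The shuttle factors Ubqln1 and Ubqln2 were low, the first at 1.33 and 17.5 TPM and the other at 5.4 and 2.11.

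Psmc3ip, which shares the symbol pattern but is no proteasome gene, had 69.5 and 27.4 TPM. Its leading transcript was a retained-intron form in replicate 1, with 66.2% of the abundance and 0 in replicate 2, and 385 bases of its leading transcripts match the overlapping gene Mlx, which had 6.78 and 303 reads.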
